A study of Homo sapiens with 4 samples.

Results

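The genes described here carry glucose into the cell, break it down to pyruvate and lactate, and control the entry of pyruvate into mitochondria. They were chosen by symbol: 39 genes, each found as 1 Ensembl identifier among the 61533 of the deposited count table, and all 39 passed the filter on low counts. The libraries were made from Caki-1, a kidney cancer line grown in McCoy's 5A medium with fetal bovine serum, for which the labels name no withdrawal of glucose. Both arms received lentivirus and puromycin: 2 libraries carried a control sequence (shControl, genotype label WT) and 2 a short hairpin RNA against TFE3 (shTFE3, genotype label TFE3-KD). Cells were replated 24 hours after infection, puromycin at 1 µg/ml followed 12 hours later, and RNA was collected after 3 days of selection. Caki-1 is 1 line, the number of different hairpins is not stated, nor whether the replicates of an arm came from separate infections. The p-values therefore measure only the spread between these libraries, which may be technical and is largely pooled over genes in the fit.

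Glucose enters through SLC2A (GLUT) carriers, and hexokinases trap it as glucose 6-phosphate. Phosphofructokinase-1 then commits the sugar to glycolysis, and the PFKFB enzymes set its pace by making and removing fructose 2,6-bisphosphate, its strongest activator. Pyruvate leaves the cell as lactate through lactate dehydrogenase and SLC16A carriers, or enters mitochondria through the carrier of MPC1 and MPC2. There pyruvate dehydrogenase kinases hold back its oxidation. Several steps have isozymes that differ between tissues, and kidney tumours are known for strong glycolysis. TFE3 is a helix-loop-helix transcription factor that binds the E-box CACGTG.

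TFE3 stood at 131 and 128 CPM (counts scaled to a fixed library size with TMM factors) in shControl replicates 1 and 2, and at 70.1 and 66.9 CPM in shTFE3 replicates 1 and 2. It fell by 0.92 on the log2 scale (standard error, SE, 0.0624, adjusted p 5.6e-11 by edgeR), in the direction of the labels. Gene counts totalled 17270180 to 17742519 per library, and 3 counts corresponded to 0.167 to 0.176 CPM. Of 12 renal epithelial markers 2, PAX2 and CA9, were at 0 in every library, and KRT19 had at most 2 counts. PAX8, KRT8, KRT18, CDH6 and VIM each had at least 1396 counts in every library, and the 12 summed to 2327 and 2392 CPM in shControl and 2332 and 2368 CPM in shTFE3, with KRT18, CDH2 and CDH6 lower in shTFE3. The 6 leukocyte markers summed to 0.176 and 0.294 CPM in shControl and 0.779 and 0.618 CPM in shTFE3, with CD3E at 0. The 4 endothelial markers summed to 2.81 and 3.23 against 4.06 and 3.37 CPM, with CDH5 at 0. The 6 fibroblast markers summed to 19.9 and 19.7 against 19.2 and 19.1 CPM, with LUM at 0. The part of these markers in the results was not tested.

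Isozymes of 1 step are related genes whose coding sequences differ at many positions. The first 90 coding bases of the enolases show this for the family that holds the largest fall. Positions are counted from 1 at the start codon, whose first base lies at 8874908 on chromosome 1 (minus strand) for ENO1, at 6915833 on chromosome 12 (plus strand) for ENO2 and at 4951830 on chromosome 17 (plus strand) for ENO3 (GENCODE release 29, GRCh38, exonic). Capitals mark the 34 positions at which the 3 genes are not all alike.
ENO1: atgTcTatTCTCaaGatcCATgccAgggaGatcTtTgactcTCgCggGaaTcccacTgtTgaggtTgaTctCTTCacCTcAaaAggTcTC
ENO2: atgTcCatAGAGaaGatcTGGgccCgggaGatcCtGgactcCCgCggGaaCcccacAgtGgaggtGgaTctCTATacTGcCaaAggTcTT
ENO3: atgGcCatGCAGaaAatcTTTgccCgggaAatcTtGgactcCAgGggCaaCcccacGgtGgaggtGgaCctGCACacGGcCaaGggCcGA
ENO1 and ENO2 had the same base at 68 of these 90 positions. The hexokinases, the family that holds the largest rise, are shown in the same way. Their start codons begin at 69318948 on chromosome 10 for HK1, at 74834581 on chromosome 2 for HK2 and at 69220436 on chromosome 10 for HKDC1, all on the plus strand, and capitals mark 38 differing positions.
HK1: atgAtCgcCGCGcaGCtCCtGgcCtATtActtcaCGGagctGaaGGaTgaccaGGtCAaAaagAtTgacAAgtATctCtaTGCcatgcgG
HK2: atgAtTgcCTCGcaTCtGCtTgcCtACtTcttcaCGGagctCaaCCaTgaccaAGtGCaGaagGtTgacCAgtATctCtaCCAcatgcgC
HKDC1: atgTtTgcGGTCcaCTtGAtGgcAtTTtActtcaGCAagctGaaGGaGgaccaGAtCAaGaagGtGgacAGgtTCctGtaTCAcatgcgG
HK1 and HK2 had the same base at 70 of the 90 positions. Over 44 pairs of isozymes, the longest stretch shared exactly by any coding transcripts was 50 bases, between ENO1 and ENO2. Reads were 150 bases long, and 0 pairs shared a stretch of that length.

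Of the 39 genes 13 fell, 3 rose and 23 did not pass (threshold 0.05 on the p of edgeR's quasi-likelihood test, adjusted over 15950 genes by Benjamini-Hochberg). Among all genes tested, 23.3% were called, 12.9% down and 10.3% up. The genes that fell were the carriers SLC2A1, SLC2A3 and SLC2A8, the isomerase GPI, the kinases PFKP, PFKFB2 and PFKFB3, the enolases ENO1 and ENO2, LDHB, and the pyruvate dehydrogenase kinases PDK1, PDK2 and PDK3. The genes that rose were HK2, PGM1 and MPC1. The share called, 41.0%, was above that of all genes, on the side of falls (33.3%) and not of rises (7.69%). This comparison was not matched for count level, and the 39 were chosen with earlier results of these data known. The median log2 fold change of the 39 was -0.12, against 0.0015 over all genes tested, and the changes ran from -1.67 for ENO2 to 0.84 for HK2, with only ENO2 past 2-fold. In bulk RNA, fewer cells of a kind and less RNA per cell cannot be told apart. The number that fell was 8 with library totals in place of TMM, a setting in which falls over all genes went from 2059 to 1680. The median log2 fold change of the 39 was -0.094 without shControl replicate 2 and -0.070 without shTFE3 replicate 1. With no filter on low counts the calls were HK2, PGM1, PFKFB2 and ENO2 alone, and these 4 passed under all 12 alternatives tried. Of all calls 44.5% were rises, and 55.8% with library totals.

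**Figure D1:**
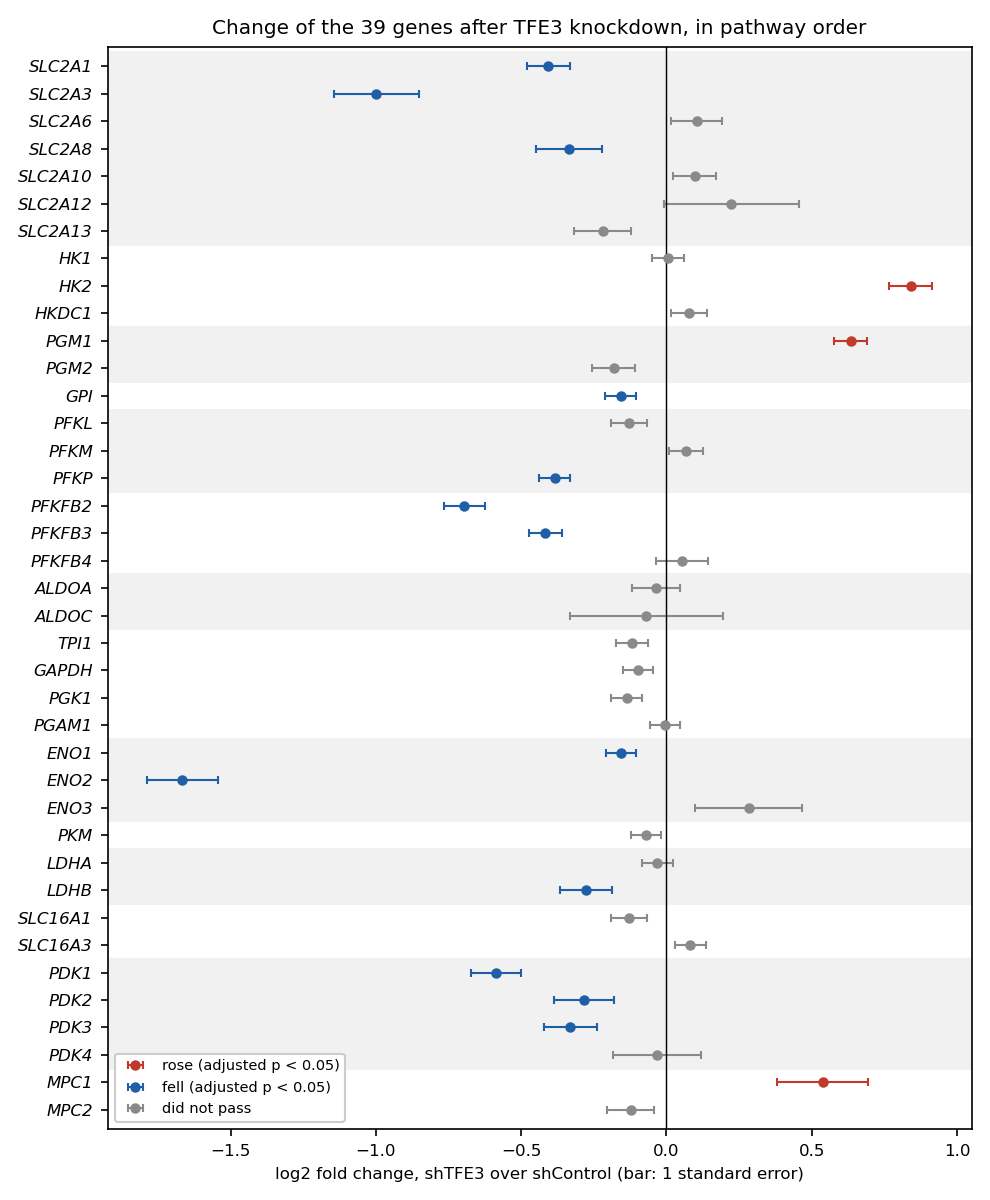
Log2 fold change (x axis, shTFE3 over shControl) of the 39 genes in pathway order (y axis), with bars of 1 standard error. Grey bands separate the steps; 13 genes in blue fell, 3 in red rose and 23 in grey did not pass, and the largest values are those of ENO2 (-1.67) and HK2 (0.84).

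The 39 genes took up 1.60% and 1.60% of the reads counted in shControl, and 1.51% and 1.56% of those in shTFE3. Levels between genes are compared per kilobase of merged exons. On that scale GAPDH, which makes NADH and a high-energy phosphate from the triose, led with 673 ± 7.18 CPM per kilobase in shControl (SD, n = 2). ENO1, PKM, LDHA, TPI1, PGAM1 and PGK1 followed, from 569 down to 179, and SLC2A12, a glucose carrier of low abundance, was lowest at 0.525.

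**Figure D2:**
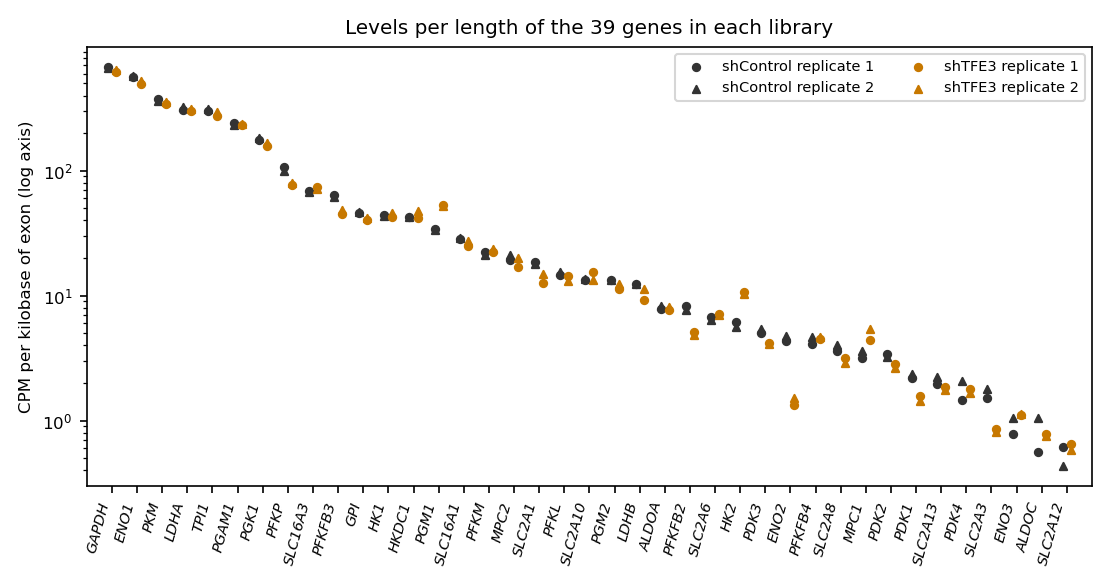
Level of each of the 39 genes in CPM per kilobase of exon (y axis, log scale) in the 4 libraries, ordered by the shControl mean (x axis). Black points are shControl and orange points shTFE3, circles replicate 1 and triangles replicate 2; GAPDH is highest and SLC2A12 lowest, and the orange points of ENO2 and SLC2A3 lie clearly under the black ones.

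Of 7 SLC2A carriers 3 fell and 4 did not pass. SLC2A1 or GLUT1 (ENSG00000117394.24, chromosome 1, 42925375 to 42959176, minus strand) is the basal carrier of most cells. It stood at 88.3 and 84.5 CPM in shControl and at 59.4 and 71.0 CPM in shTFE3. Its mean was 75.5% of control (log2 fold change -0.41, SE 0.0742, edgeR adjusted p 0.000205). The arms did not overlap, and shTFE3 replicate 1 was the lower of the knockdown libraries. SLC2A3 or GLUT3 (ENSG00000059804.16, chromosome 12, 7919230 to 7936275, minus strand) is a carrier of high affinity. It stood at 9.26 and 11.1 CPM in shControl and 5.23 and 4.95 CPM in shTFE3. The mean was 10.2 CPM in shControl and 5.09 CPM in shTFE3 (log2 fold change -0.999, SE 0.147, edgeR adjusted p 1.32e-05), with neither knockdown library near the controls. SLC2A8 (GLUT8), a carrier kept largely inside the cell, stood at 14.2 and 15.8 against 12.5 and 11.3 CPM (-0.33, SE 0.113, edgeR adjusted p 0.0334). SLC2A1 did not pass without shTFE3 replicate 1 (-0.28, edgeR adjusted p 0.0632). SLC2A8 did not pass by DESeq2 (adjusted p 0.212), with library totals in place of TMM (edgeR adjusted p 0.0596) or without shControl replicate 2 (edgeR adjusted p 0.27), shTFE3 replicate 1 (0.111) or shTFE3 replicate 2 (0.236).

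The carriers that did not pass had log2 fold changes from -0.22 for the myo-inositol carrier SLC2A13 to 0.22 for SLC2A12. SLC2A10 (GLUT10) was the other abundant carrier, at 67.3 and 67.4 CPM in shControl and 77.7 and 66.3 CPM in shTFE3, where the higher value came from replicate 1. Per kilobase, SLC2A1 made up 40.1% and 38.7% of the summed level of the 7 carriers in shControl and 30.1% and 36.4% in shTFE3. SLC2A10 made up 28.9% and 29.1%, then 37.3% and 32.1%, and was above SLC2A1 in shTFE3 replicate 1 alone. In SLC2A12, 38.9% of the exon bases are shared with TBPL1 on the opposite strand, so its level is uncertain.

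HK2 (ENSG00000159399.10, chromosome 2, 74833981 to 74893359, plus strand) is the hexokinase that many tumours and insulin-sensitive tissues use. It stood at 37.2 and 34.0 CPM in shControl and at 64.9 and 62.6 CPM in shTFE3. It rose to 179% of control (log2 fold change 0.84, SE 0.0744, edgeR adjusted p 5.59e-09), and the knockdown libraries were both far above both controls. HK1, the housekeeping isozyme, stood at 280 and 275 against 269 and 287 CPM (log2 fold change 0.01, SE 0.0556, edgeR adjusted p 0.956). HKDC1, a hexokinase-like gene beside HK1 on chromosome 10, stood at 183 and 180 against 179 and 204 CPM (0.08, edgeR adjusted p 0.412). In both of these genes the arms overlapped.

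Per kilobase, HK2 made up 6.56% and 6.12% of the hexokinase level in shControl and 11.2% and 9.94% in shTFE3. HK1 made up 47.5% and 47.7%, then 44.8% and 44.0%, and HKDC1 45.9% and 46.2%, then 44.0% and 46.1%. HK2 was 7.51-fold below HK1 in shControl and 4.21-fold below it in shTFE3, so it remained the least abundant of the 3 in every library. The summed level of the 3 was 93.5 and 91.5 CPM per kilobase in shControl and 95.5 and 104 in shTFE3. Shares are given as values: with 2 libraries against 2 the exact two-sided permutation test cannot go below p = 0.333, for each of the 33 shares computed in 11 families.

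PGM1 (ENSG00000079739.17, chromosome 1, 63593276 to 63660245, plus strand) interconverts glucose 1-phosphate and glucose 6-phosphate and so links glycogen to glycolysis. It rose from 144 and 141 CPM to 222 and 219 CPM. That is 155% of control (log2 fold change 0.63, SE 0.0562, edgeR adjusted p 5.82e-09), with the replicates of each arm close together. PGM2, its relative that acts mainly on pentose phosphates, stood at 49.8 and 49.4 against 41.6 and 45.9 CPM (-0.18, SE 0.0749, edgeR adjusted p 0.0812). PGM1 was 71.7% and 71.5% of the summed level of both in shControl and 82.5% and 80.8% in shTFE3.

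GPI, which turns glucose 6-phosphate into fructose 6-phosphate, stood at 487 and 498 CPM in shControl and 434 and 450 CPM in shTFE3 (log2 fold change -0.16, SE 0.0531, edgeR adjusted p 0.0336). The arms did not overlap, but the difference is small, and GPI did not pass with any 1 of the 4 libraries left out (edgeR adjusted p 0.0817 to 0.262) or with library totals in place of TMM (0.0995). PFKP (ENSG00000067057.18, chromosome 10, 3066333 to 3137712, plus strand), the platelet form of phosphofructokinase-1, was the most abundant of the 3, at 515 and 482 CPM in shControl and 374 and 389 CPM in shTFE3. It fell to 76.6% of control (-0.39, SE 0.0549, edgeR adjusted p 8.98e-06). PFKM, the muscle form, stood at 163 and 156 against 162 and 172 CPM (0.07, edgeR adjusted p 0.46), and PFKL, the liver form, at 130 and 137 against 127 and 117 CPM (-0.13, edgeR adjusted p 0.135). PFKP made up 74.2% and 73.1% of the family per kilobase in shControl and 68.0% and 68.7% in shTFE3, and PFKM 15.6% and 15.6%, then 19.5% and 20.1%. The order PFKP, PFKM, PFKL held in all 4 libraries.

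PFKFB3 (ENSG00000170525.21, chromosome 10, 6144934 to 6254644, plus strand) is an isoform whose kinase activity far exceeds its phosphatase activity. It stood at 391 and 374 CPM in shControl and 275 and 298 CPM in shTFE3. It fell to 74.9% of control (log2 fold change -0.42, SE 0.0565, edgeR adjusted p 4.38e-06). PFKFB2 (ENSG00000123836.15, chromosome 1, 207034366 to 207081024, plus strand), the heart form, stood at 84.8 and 78.9 against 52.1 and 49.0 CPM and fell to 61.7% of control (-0.70, SE 0.0694, edgeR adjusted p 3.98e-08). PFKFB4, the testis form, stood at 24.9 and 28.8 against 27.3 and 28.4 CPM (0.05, SE 0.0894, edgeR adjusted p 0.734), and its arms overlapped. PFKFB3 made up 83.8% and 83.1% of the family per kilobase in shControl and 82.5% and 83.7% in shTFE3, so its share was nearly level while the summed family level was 76.4 and 73.5 against 54.6 and 58.1 CPM per kilobase. PFKFB2 stood 2.04-fold and 1.64-fold above PFKFB4 in shControl replicates 1 and 2, and 1.14-fold and 1.03-fold above it in shTFE3.

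**Figure D3:**
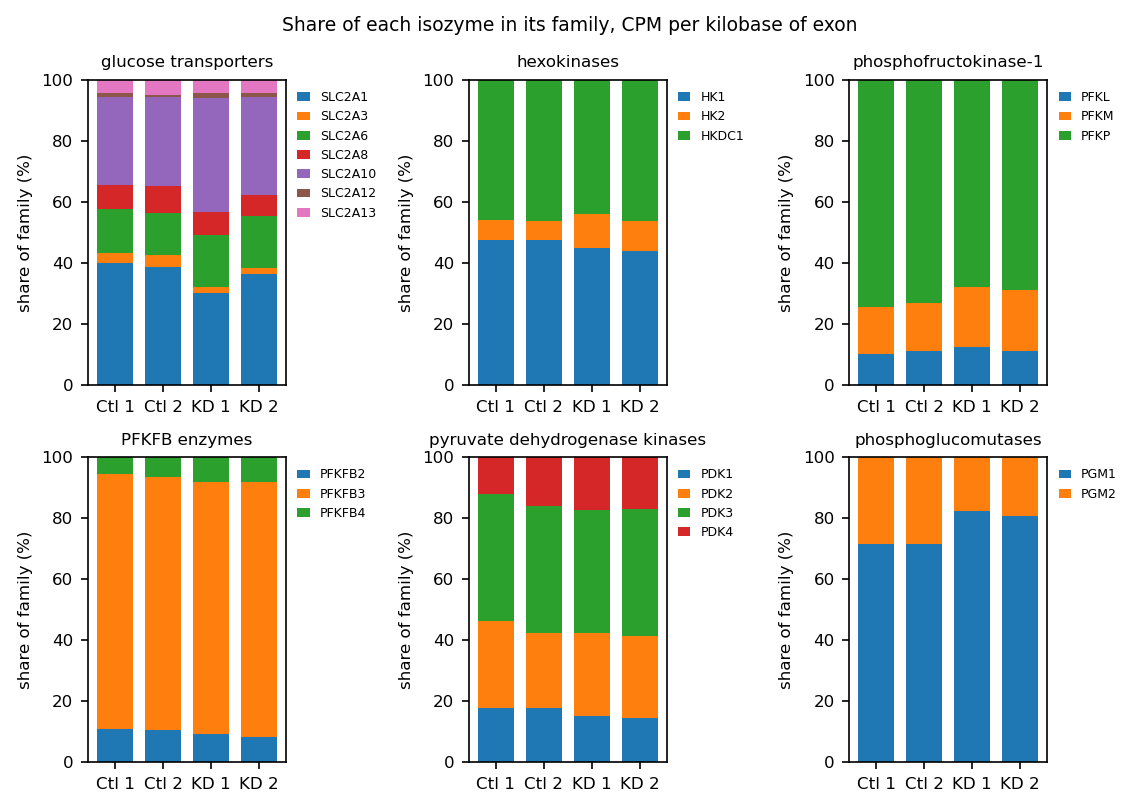
Share of each isozyme (y axis, percent of the summed CPM per kilobase of its family) in 6 families, with 1 bar per library (x axis; Ctl is shControl and KD is shTFE3, with the replicate number). HK2 and PGM1 take a larger part of the bar in both KD libraries, PFKP a smaller one, and PFKFB3 about the same, between 82.5% and 83.8%.

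Of the 6 genes of the middle steps (ALDOA, ALDOC, TPI1, GAPDH, PGK1 and PGAM1) 0 passed by edgeR, with 2 at an unadjusted p under 0.05, 0 passed by DESeq2 and 1 passed by limma-voom. Their log2 fold changes lay between -0.14 for PGK1 and -0.0040 for PGAM1. GAPDH stood at 2020 and 1990 CPM in shControl and 1838 and 1908 CPM in shTFE3 (-0.10, SE 0.0512, edgeR adjusted p 0.177). PGK1, the first enzyme of the pathway that makes ATP, stood at 973 and 1004 against 877 and 922 CPM (-0.14, SE 0.0526, edgeR adjusted p 0.0617), and was the gene that passed by limma-voom. PGAM1, the mutase that moves the phosphate of phosphoglycerate, stood at 614 and 600 against 602 and 609 CPM, with the arms overlapping. TPI1, which interconverts the triose phosphates, stood at 815 and 848 against 736 and 795 CPM (-0.12, edgeR adjusted p 0.121). ALDOA, the main aldolase of most cells, had only 526, 549, 538 and 562 counts in the 4 libraries, or 8.05 CPM per kilobase in shControl against 308 for TPI1, the next step. Of its exon bases 42.3% lie in AC093512.2 on the same strand, a locus with 13, 10, 14 and 11 counts. How reads in shared exons were counted is not given in the sources used here, so the level of ALDOA is uncertain. ALDOC, the brain aldolase, was rare: 28 and 52 reads were counted in shControl, 41 and 39 in shTFE3.

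ENO2 (ENSG00000111674.9, chromosome 12, 6913745 to 6923698, plus strand) is the form first known from neurons and also found in many tumours. It stood at 18.6 and 20.3 CPM in shControl and at 5.73 and 6.52 CPM in shTFE3. It fell by 1.67 on the log2 scale (SE 0.122, edgeR adjusted p 2.26e-10) to 31.5% of control, the lowest percentage among the 39 genes, and the arms were far apart. ENO1, the form of most cells, stood at 2995 and 3004 against 2617 and 2762 CPM (-0.16, SE 0.0515, edgeR adjusted p 0.028). ENO3, the muscle form, stood at 3.34 and 4.52 against 4.73 and 4.83 CPM (0.28, SE 0.183, edgeR adjusted p 0.292). ENO1 did not pass without shControl replicate 1 (edgeR adjusted p 0.219), shControl replicate 2 (0.241) or shTFE3 replicate 1 (0.112), or with library totals in place of TMM (0.0861).

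Per kilobase ENO1 made up 99.1% and 99.0% of the enolase level in shControl and 99.5% and 99.5% in shTFE3. ENO2 made up 0.758% and 0.825%, then 0.269% and 0.289%, and was 125-fold below ENO1 in shControl and 357-fold below it in shTFE3. ENO2 was 5.58-fold and 4.51-fold above ENO3 in the control libraries and 1.21-fold and 1.35-fold above it in the knockdown libraries. Of the exon bases of ENO3, 2.59% are shared with PFN1 on the opposite strand. PFN1 had 4978 to 5282 counts per library against 57 to 86 for ENO3, so the level of ENO3 and this ratio are uncertain. The summed enolase level was 573 and 575 CPM per kilobase in shControl and 498 and 526 in shTFE3, and most of that difference is in ENO1, which went from 569 to 510 on this scale against 4.54 to 1.43 for ENO2.

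PKM stood at 3203 and 3111 CPM in shControl and 2954 and 3056 CPM in shTFE3 (log2 fold change -0.07, SE 0.0511, edgeR adjusted p 0.348). Counts per gene do not separate its M1 and M2 splice forms. LDHA, the subunit of lactate dehydrogenase that favours lactate formation, stood at 1891 and 2012 against 1878 and 1941 CPM (-0.03, edgeR adjusted p 0.726), with overlapping arms. LDHB, the heart subunit, stood at 37.3 and 36.7 against 27.4 and 33.7 CPM (-0.28, SE 0.0893, edgeR adjusted p 0.0256), where shTFE3 replicate 1 was the lowest. It did not pass without shTFE3 replicate 1 (-0.13, edgeR adjusted p 0.322), without shControl replicate 1 (0.0768), with library totals in place of TMM (0.0542) or by DESeq2 (adjusted p 0.131), and 33.4% of its exon bases lie in AC010197.2 on the same strand. LDHA made up 96.1% and 96.3% of the family in shControl and 97.1% and 96.5% in shTFE3. The lactate exporter SLC16A3 (MCT4) stood at 617 and 612 against 663 and 638 CPM (0.08, edgeR adjusted p 0.281), and SLC16A1 (MCT1) at 151 and 154 against 133 and 146 CPM (-0.13, edgeR adjusted p 0.129).

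Pyruvate dehydrogenase kinases switch off the pyruvate dehydrogenase complex, and 3 of 4 fell. PDK1 (ENSG00000152256.14, chromosome 2, 172555373 to 172608669, plus strand) stood at 32.5 and 34.8 CPM in shControl and 23.3 and 21.5 CPM in shTFE3, 66.6% of control (log2 fold change -0.59, SE 0.0868, edgeR adjusted p 1.5e-05). PDK3 stood at 25.0 and 26.9 against 20.9 and 20.5 CPM (-0.33, SE 0.0905, edgeR adjusted p 0.00883). PDK2 stood at 18.8 and 17.6 against 15.5 and 14.4 CPM (-0.28, SE 0.102, edgeR adjusted p 0.0459). In these genes both knockdown libraries were under both controls. PDK4, the form induced by fasting, stood at 6.62 and 9.33 against 8.07 and 7.53 CPM (-0.03, edgeR adjusted p 0.913), and the control libraries enclosed the knockdown ones. PDK3 did not pass by DESeq2 (adjusted p 0.08) or without shControl replicate 2 (edgeR adjusted p 0.108), shTFE3 replicate 1 (0.095) or shTFE3 replicate 2 (0.122). PDK2 did not pass by DESeq2 (adjusted p 0.25), with library totals in place of TMM (edgeR adjusted p 0.0828) or with any 1 library left out (edgeR adjusted p 0.0774 to 0.263), and 38.6% of its exon bases are shared with SAMD14 on the opposite strand.

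Per kilobase PDK3 had the highest level of the kinases, with 41.7% and 41.7% of the family in shControl and 40.6% and 41.8% in shTFE3. PDK1 made up 18.0% and 17.9%, then 15.1% and 14.6%. PDK1 was 1.49-fold and 1.13-fold above PDK4 in the control libraries, and at 0.877 and 0.866 of it in the knockdown libraries. Both orders depend on the exon length used for PDK1, 14883 bases, which includes long transcripts of the annotation and lowers its level per kilobase. In CPM without length scaling PDK1 was the highest of the 4 kinases in every library, above PDK3 and PDK4 in both arms.

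MPC1 (ENSG00000060762.19, chromosome 6, 166364919 to 166383013, minus strand) is a subunit of the carrier that brings pyruvate into mitochondria. It stood at 4.87 and 5.58 CPM in shControl and 6.84 and 8.32 CPM in shTFE3. It rose to 145% of control (log2 fold change 0.54, SE 0.157, edgeR adjusted p 0.0143), and shTFE3 replicate 2 was the highest. Its partner MPC2 stood at 49.4 and 53.6 against 43.3 and 51.3 CPM (-0.12, edgeR adjusted p 0.298). MPC1 did not pass by DESeq2 (adjusted p 0.139) or without shControl replicate 1 (edgeR adjusted p 0.13), shTFE3 replicate 1 (0.0568) or shTFE3 replicate 2 (0.201). MPC1 made up 14.0% and 14.7% of the summed level of both in shControl and 20.7% and 21.1% in shTFE3. In MPC2, 22.5% of the exon bases are shared with DCAF6 on the opposite strand, so its level and these shares are uncertain.

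**Figure D4:**
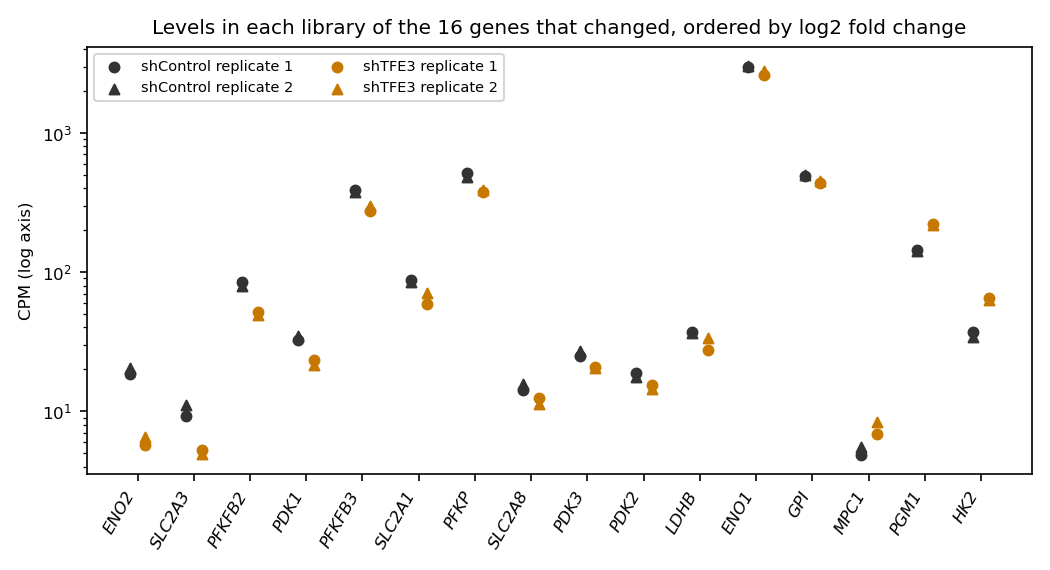
CPM (y axis, log scale) in each library of the 16 genes that changed, ordered by log2 fold change from ENO2 to HK2 (x axis). Black points are shControl and orange points shTFE3, circles replicate 1 and triangles replicate 2; the orange points of MPC1, PGM1 and HK2 lie above the black ones and those of the other 13 genes below them.

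Promoter sequences were read for 36 of the 39 genes from the RefSeq table (GRCh38.p14), as the 250 bases before each listed start; SLC2A3, SLC16A1 and PFKFB2 had no entry. Searched on both strands, the E-box CACGTG was found at 9 of the 69 listed starts of these genes (13.0%) and at 6.35% of the 35116 starts of all genes. The 9 genes were ALDOA, ALDOC, GAPDH, HK2, LDHA, PDK2, PFKFB3, PGM2 and SLC2A13, that is 2 of 11 genes with an entry that fell, 1 of 3 that rose and 6 of 22 that did not pass. The shorter ACGTG, a common core of sites for hypoxia-inducible factors, is contained in CACGTG. It was found at 23 of 69 starts (33.3%), against 18.5% of all starts, and in 7 of 11 genes that fell, 2 of 3 that rose and 11 of 22 that did not pass. Counts of genes take a match at any listed start, and the shares over all genes given here are per start only. Of longer forms of the E-box, TCACGTG was found at 4.35% of these starts and 3.31% of all starts, and GTCACGTG at 2.90% and 2.16%. Both were in 0 of 11 genes that fell and 0 of 3 that rose. TCACGTG was in 3 of 22 that did not pass and GTCACGTG in 2. Such a match describes letters in the sequence and is not a measured site.

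The first of 2 starts listed for HK2, the gene with the largest rise, had 2 ACGTG and 0 E-boxes, and the second had 2 E-boxes. This window (chr2:74834920-74835169, plus strand) lies in an intron of HK2, with 0 of its 250 bases in exons of GENCODE release 29. Capitals mark each ACGTG or CACGT.
HK2 second start: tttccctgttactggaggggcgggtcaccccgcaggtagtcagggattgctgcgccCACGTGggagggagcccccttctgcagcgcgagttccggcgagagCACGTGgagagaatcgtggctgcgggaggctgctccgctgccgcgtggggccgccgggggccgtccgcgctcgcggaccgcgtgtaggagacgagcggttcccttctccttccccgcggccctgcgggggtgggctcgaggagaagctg
Windows of other changed genes overlap exons and are shown only around the match, with the same marking. They come from ENO2 (chr12:6914452-6914476), which had the largest fall and no CACGTG, from the second start of PFKFB3 (chr10:6202814-6202839), which had 1 CACGTG, and from the second start of PDK1 (chr2:172556063-172556089), all on the plus strand.
ENO2: ccgcgctcgtACGTGcgcctccgcc
PFKFB3: ccctcctcccCACGTGgaagggggct
PDK1: tgctgcccgcCACGTccctCACGTacc
ENO2 thus had 1 ACGTG, 118 bases before its start, while PDK1 had 2, the first 17 bases before its second start. The first starts of PFKFB3 and PDK1 had 0 matches to either motif.

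A further list of 57 glucose genes outside the 39 covered other hexose carriers, other isozymes, gluconeogenesis, glycogen, the pyruvate dehydrogenase complex and relatives of the lactate carriers. Of 35 tested, 5 rose, 6 fell and 24 did not pass, with a median log2 fold change of -0.03, and 22 had too few counts to be tested. The share called was 31.4% (14.3% up and 17.1% down), against 23.3% of all genes tested (10.3% up and 12.9% down). G6PC1, FBP1 and PCK1, the enzymes that make gluconeogenesis possible in kidney, had 0 counts in every library. The falls with the smallest p were PDP1, a phosphatase that reactivates pyruvate dehydrogenase (75.6 and 81.3 against 61.0 and 60.7 CPM, log2 fold change -0.37), PHKB, a subunit of phosphorylase kinase (-0.30), EMB, a partner of lactate carriers (-0.36), and SLC2A9, a urate carrier (-0.24). The rises were led by PDPR, which restrains that phosphatase (0.27), TIGAR, which removes fructose 2,6-bisphosphate (12.8 and 13.6 against 17.9 and 16.9 CPM, 0.40), PC, pyruvate carboxylase (0.31), and PHKG2, another subunit of phosphorylase kinase (0.26). The 8 subunits and regulators of the pyruvate dehydrogenase complex, PDP1 and PDPR among them, had 1 up, 1 down and 6 that did not pass. BPGM rose as well, and SLC16A7 and PYGL fell. Each of these 11 genes failed to pass with at least 1 of the libraries left out. Calls over all genes were also fewer in every fit with 1 library left out. By DESeq2 1 rose and 3 fell, while calls over all genes went from 3709 to 2157. The replicate block left 3 rises, and library totals left 3 falls.

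A list of 12 genes held regulators of glycolytic genes together with the glucose-responsive TXNIP and ARRDC4. Of these 11 were tested, 1 rose and 3 fell, that is 36.4% called against 23.3% of all genes tested. MYC, a transcription factor that drives many glycolytic genes, stood at 141 and 144 CPM in shControl and 156 and 165 CPM in shTFE3 (log2 fold change 0.18, edgeR adjusted p 0.0278). TXNIP and ARRDC4, glucose-responsive genes that restrain glucose uptake, fell by 0.32 and 0.47 on the log2 scale, and PPARGC1A, a coactivator of mitochondrial genes, fell by 0.32. HIF1A, EPAS1, ARNT, VHL, MLX and MLXIP were among those that did not pass. MYC did not pass with any 1 library left out (edgeR adjusted p 0.0686 to 0.208) or by DESeq2 (adjusted p 0.0681). Without shTFE3 replicate 2 none of TXNIP (edgeR adjusted p 0.0638), ARRDC4 (0.0516) and PPARGC1A (0.213) passed, and ARRDC4 did not pass without shTFE3 replicate 1 (0.06).

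The authors' deposited table of 546 changed genes, in which the smallest absolute log2 fold change is 0.59, holds 6 of the 39. In the authors' deposited table HK2 has a log2 fold change of 0.84, PGM1 of 0.63, PDK1 of -0.59, PFKFB2 of -0.69, SLC2A3 of -0.999 and ENO2 of -1.67.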

How the data were processed

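Poly(A) RNA of 4 Caki-1 libraries was sequenced as paired reads of 150 bases, per the labels. The submitters' processing notes name Trim Galore, STAR, featureCounts, DESeq2 and hg38; of annotation, strand and multi-mapping settings nothing is stated there. The deposited values used were the authors' raw read counts per Ensembl gene. The authors' deposited table of changed genes also lists a mean normalized signal, log2 fold changes with their errors, a test score and p-values, and only its log2 fold changes were used, as the authors' values.

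Symbols came from a table of gene names (61415 of 61533 identifiers) and from GENCODE release 29 (105), which also gave coordinates (GRCh38) and merged exon lengths; 13 identifiers stayed unnamed, and 46 duplicate rows of the pseudoautosomal region of Y, at 0 counts, were left out. Counts were fitted with edgeR 4.0.16 in R 4.3.3 (TMM factors, filterByExpr, quasi-likelihood test, Benjamini-Hochberg adjustment over 15950 genes, which held 99.8% of counts), all 4 libraries and the arm as the only term, with 2 residual degrees of freedom. The quasi-likelihood fit adds 22.4 prior degrees of freedom drawn from all genes tested. The error of each gene therefore rests more on the other genes than on its own replicates. CPM values use TMM-scaled library sizes. Every adjusted p without another tool's name is edgeR's. Alternatives were the size factors of DESeq2, library totals or upper quartile factors in edgeR, no filter or a filter of 50 counts in 2 libraries, DESeq2 1.42.0, voom in limma 3.58.1, a replicate block and each library left out. The fit was tested on simulated counts.

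All 39 genes are named by rule, with full values for those that changed or belong to an isozyme family; of the other glucose genes, up to 4 called in each direction with the smallest p are named, and further ones were named after their values were seen. The 39 genes and the lists were chosen with earlier results of these data known. The chromatin libraries of the series were not analysed here. Single values of a few listed genes are not reported here.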

Additional observations from a re-analysis of the deposited data

How the results depend on the processing

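With 2 libraries per arm the calls of small changes were the least stable: of the 16 genes that changed, 11 were called by DESeq2, 16 by limma-voom and 8 without shTFE3 replicate 1, and 0 changed direction under the 12 alternatives. Over all genes, 3709 calls became 384 with no filter on low counts and 2157 by DESeq2, and 1043 to 2514 with 1 library left out. The genes of the pathway that fell, 13, became 8 with library totals, 2 with no filter and 6 to 9 with 1 library left out, and the 3 that rose became 2 to 3 with 1 left out. Of the other glucose genes, the 5 rises became 0 with no filter, 1 by DESeq2, 3 with the replicate block and 0 to 2 with 1 library left out; the 6 falls became 3 with library totals, 0 with no filter, 3 by DESeq2 and 0 to 5 with 1 left out. The alternatives for single genes outside the 39 and for the regulators were added after seeing the data. The median log2 fold change of the 39, -0.12, was -0.082 with library totals and -0.16 to -0.070 with 1 library left out. TFE3 kept its call throughout, from -0.95 to -0.88.

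Without length scaling, the difference in isozyme share (shTFE3 minus shControl) was -6.06 points for PFKP (-5.33 per kilobase), -2.78 for PFKFB2 (-1.89), -0.417 for ENO2 (-0.512), -5.19 for PDK1 (-3.10) and 4.61 for MPC1 (6.59). With 1 library left out it ran from -9.27 to -3.03 points for SLC2A1, 3.6 to 4.86 for HK2, 9.18 to 10.8 for PGM1, -5.88 to -4.77 for PFKP, -2.43 to -1.34 for PFKFB2, -0.546 to -0.479 for ENO2, -0.855 to -0.314 for LDHB, -3.34 to -2.87 for PDK1 and 6.25 to 6.92 for MPC1.

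Genes that did not pass changed sign in places, without passing. With library totals the log2 fold change was 0.00088 for ALDOA, 0.033 for PGAM1, 0.0051 for LDHA and 0.0042 for PDK4. It was -0.0041 for HK1 with no filter and 0.0046 for PGAM1 with 50 counts in 2 libraries. With 1 library left out it ran from -0.020 to 0.20 for SLC2A10, -0.010 to 0.50 for SLC2A12, -0.043 to 0.054 for HK1, -0.021 to 0.17 for HKDC1, -0.050 to 0.16 for PFKFB4, -0.076 to 0.0042 for ALDOA, -0.45 to 0.44 for ALDOC, -0.022 to 0.010 for PGAM1, -0.077 to 0.012 for LDHA and -0.26 to 0.23 for PDK4. The cause was not tested.

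The labels do not say that replicate numbers pair libraries, and same-numbered libraries did not deviate together (correlation -0.0292). With the replicate block, which leaves 1 residual degree of freedom, 3558 genes changed, and of the 39 genes 3 rose and 10 fell. The genes that no longer passed were GPI (edgeR adjusted p 0.0634), ENO1 (0.0551) and PDK2 (0.0508). Depth limits the rarest genes most: ALDOC had 160 counts in all 4 libraries together.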
